A study of Sus scrofa with 8 samples.

Results

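Heat shock proteins are molecular chaperones: they bind unfolded or damaged proteins, keep them from clumping and help them to fold. In skeletal muscle, where contraction, heat and oxidants strain proteins that must stay in register, HSP70 and HSP90 chaperones act in the cytosol, relatives of HSP70 serve the endoplasmic reticulum and the mitochondria, a barrel-shaped chaperonin folds proteins imported into mitochondria, and small heat shock proteins protect the contractile and cytoskeletal filaments. Many of these genes are switched on together by heat shock factors when proteins unfold.

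The 10 genes described here are HSPA1A, HSPA5, HSPA8, HSPA9, HSP90AA1, HSP90AB1, HSPB1, HSPD1, HSPE1 and CRYAB. They were chosen by name, as the spots of the array whose single gene symbol in the platform annotation is one of these. All 10 had spots, 32 in all, among 2922 genes named on 9984 spots. The annotation is human and its accessions are human, so pig transcripts may bind a probe unequally. Of the 10 symbols, 9 also occur in the pig gene tables, and HSPA1A does not. Stress-inducible HSP70 has near-identical copies in mammals, so the HSPA1A spots may read more than 1 gene.

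The series compared skeletal muscle of pigs given diets of different energy content. Muscle RNA of a high energy diet sample and of a low energy diet sample was labelled with 2 dyes and hybridised in competition on the same array. There were 8 arrays and 4 couples of samples: a couple met on 1 array with its high energy sample in dye 5, as the titles write the dyes, and on another with it in dye 3. High energy sample 40 was paired with low energy sample 49 in couple 1, high energy sample 41 with low energy sample 61 in couple 2, high energy sample 40 again with low energy sample 142 in couple 3, and high energy sample ae with low energy sample be in couple 4. The labels give the samples as muscle of animals on either diet. The sources used here do not give age, sex, breed, the muscle taken or the make-up of the diets, nor whether a number stands for 1 animal or a pool. A p-value therefore measures only how these couples spread, and that spread may be technical in part. Since the arrays give ratios and not levels, the tissue label could not be checked by level, although 11 of the 12 fibre markers looked for were measured.

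Values are log2 ratios, so 0 means equal signal from both diets and 1 means a doubling. A positive value is read as higher on the high energy diet. That direction is likely but not settled: per the labels, channel 2 of all arrays held the high energy sample and channel 1 the low energy one, and the series' design text takes low energy as the base of comparison, but no source states how the ratio was formed. If the ratios were instead one dye over the other, the diet ratio would be the turned value, which averages the arrays after reversing the sign of those with high energy in dye 3 and is given beside the ratio of each gene named with one and beside list medians. Over all features, arrays of different couples with the same dyes correlated at -0.0427 to 0.0712, a mean r of 0.0266. Those of different couples with swapped dyes correlated at -0.0271 to 0.0584, a mean r of 0.0204. The arrays of one couple correlated at -0.0468 to 0.0942, also a mean r of 0.0204. By these means the arrays of one couple were no more alike than arrays of different couples. The arrays held values for 77.6% to 94.4% of spots. Of the members' 256 possible spot values, 241 were present, and 2 neighbouring spots of a member on one array differed by a median of 0.21, against 0.27 over all 3305 named neighbouring pairs.

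No heat shock protein gene passed the test between the diets. Of the 10 genes, 9 had a ratio above 0, and HSPA5 lay below it. Their median log2 ratio was 0.13, against -0.012 over the 5025 features tested, of which 46.4% lay above 0. The members' ratios lay between -0.12 and 0.26. None of the 10 passed the Benjamini-Hochberg threshold of 0.05 in limma's test, and neither did any other feature (0% called, smallest adjusted p = 0.996). At an unadjusted limma p under 0.05 there were 0 of the 10 members, against 3.78% of all features, or 190 (1.37% above 0 and 2.41% below). Limma called 0 features for the turned value (0%), and 0 members had an unadjusted p under 0.05 for it, against 2.65% of features. On that reading 5 of the 10 members lay above 0, with a median of -0.0076, against 47.4% of features and a median of -0.0085. The count of 9 above 0 thus holds for ratios of high over low energy diet, and not for the turned value with either sign. In whole muscle, a change in the share of a cell type and a change in RNA per cell cannot be told apart.

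**Figure D1:**
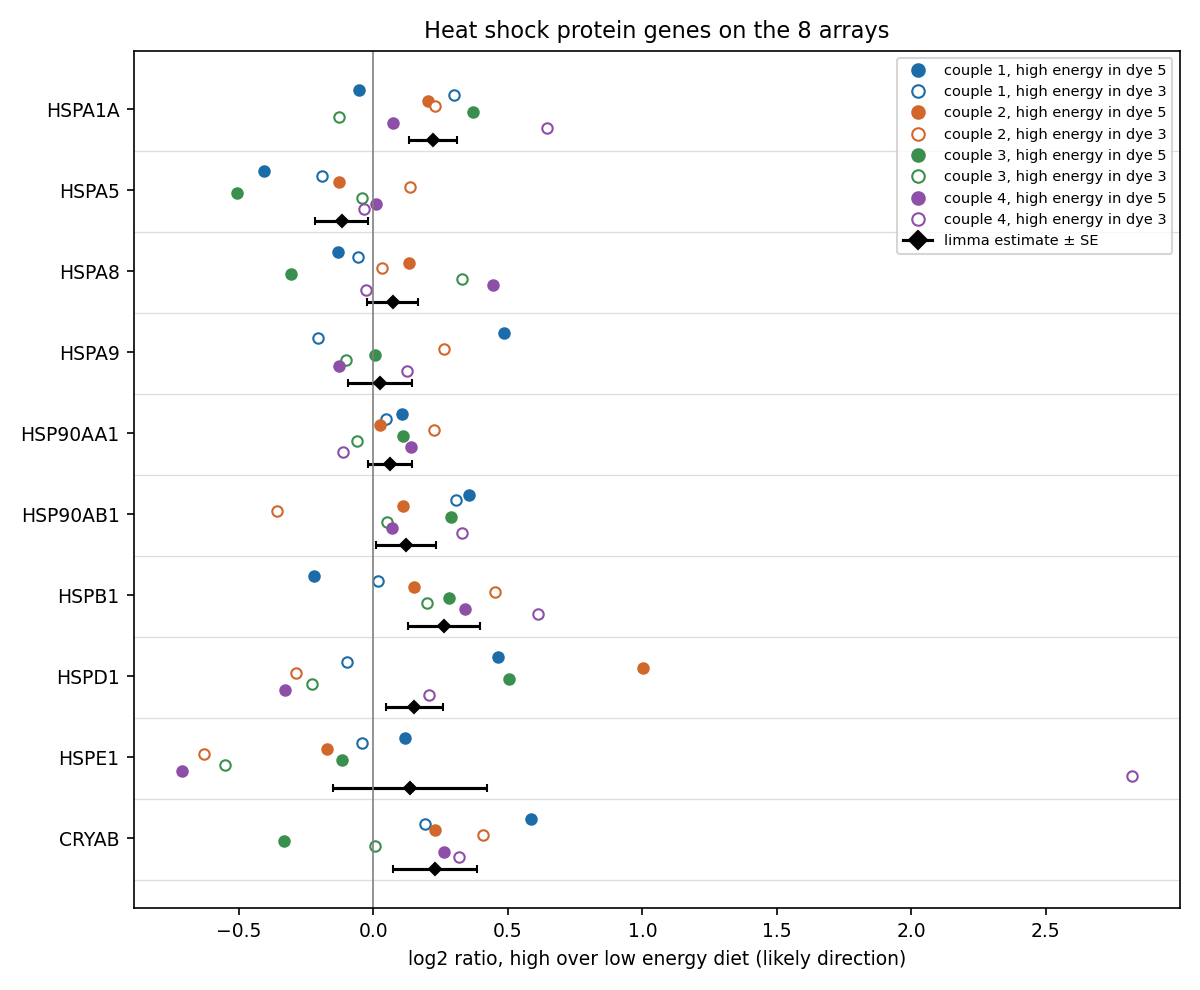
Log2 ratio of each heat shock protein gene on the 8 arrays (horizontal axis, spots of a gene averaged), coloured by couple, filled for high energy in dye 5 and open for high energy in dye 3, with the limma estimate ± SE as a black diamond. Most genes scatter on both sides of 0, HSPB1, CRYAB and HSP90AB1 have 7 of 8 arrays above 0, and HSPE1 has 1 array at 2.82. The share of all features with 7 of 8 arrays above 0 was not counted.

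Among the cytosolic HSP70 chaperones, HSPA1A, the stress-inducible form, had the ratio with the smallest p of the members. With high energy in dye 5 its log2 ratios in couples 1 to 4 were -0.056, 0.20, 0.37 and 0.074, and with high energy in dye 3 they were 0.30, 0.23, -0.13 and 0.65. The arrays lay on both sides of 0, 6 above and 2 below, and the mean of the dye orientations was above 0 in each couple, at 0.12, 0.22, 0.12 and 0.36. The limma estimate was 0.22 ± 0.089 (SE, n = 4 couples; limma's adjusted p = 0.996, as for every member), which is 1.17-fold with a 95% interval of 0.999 to 1.36-fold. The turned value was -0.076. Without couple 4 the ratio was 0.16, and with couple 4 standing on its dye 5 array alone, an alternative added after the values were seen, it was 0.14.

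HSPA8, the constitutive HSP70 that also strips clathrin coats from vesicles, gave -0.13, 0.13, -0.31 and 0.44 in couples 1 to 4 with high energy in dye 5, and -0.058, 0.033, 0.33 and -0.028 with high energy in dye 3. Its arrays lay on both sides of 0, 4 above and 4 below. Its 2 spots repeated each other closely, differing by at most 0.16 on any array, so for this gene the arrays and couples differed by more than the spots of one array did. The ratio was 0.071 ± 0.094 (SE, n = 4 couples; turned 0.015), with an interval of 0.893 to 1.24-fold, and was 0.012 without couple 4 and 0.14 with only the dye 5 array of that couple.

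The HSP70 relatives of the organelles did not share a direction. HSPA5, also called BiP, holds nascent proteins in the endoplasmic reticulum and restrains the sensors of the unfolded protein response. It was the one member below 0. With high energy in dye 5 it had -0.41, -0.13, -0.51 and 0.0077, and with high energy in dye 3 it had -0.19, 0.13, -0.043 and -0.034. Its couple means were -0.30 and -0.27 in couples 1 and 3, which share high energy sample 40, and 0.0024 and -0.013 in couples 2 and 4. The mean of couple 3 rested largely on a single spot. On its dye 5 array spot 6743 had -0.97 and spot 6744 next to it -0.042, and on its dye 3 array spot 6744 had no value. The ratio was -0.12 ± 0.099 (SE, n = 4 couples; turned -0.10), with an interval of 0.777 to 1.09-fold.

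HSPA9, or mortalin, pulls proteins into the mitochondrial matrix. It had no value on the dye 5 array of couple 2, so its ratio rests on 3 couples, with means of 0.14, -0.049 and -0.0022 in couples 1, 3 and 4. In each of these couples the arrays with swapped dyes had opposite signs, 0.48 and -0.21 in couple 1, 0.0052 and -0.10 in couple 3, and -0.13 and 0.12 in couple 4. Its ratio was 0.025 ± 0.12 (SE, n = 3 couples; turned 0.060), and it changed sign without couple 1, at -0.025, and with only the dye 5 array of couple 4, at -0.030. It was 0.068 without couple 3 and 0.045 without couple 4.

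Both cytosolic HSP90 genes had small ratios. HSP90 matures kinases and steroid receptors and, in muscle, helps myosin heads to fold. HSP90AA1, the inducible form, was the member with the least spread between couples, an SD of 0.051, against a median of 0.21 over all features. Its values were 0.11, 0.024, 0.11 and 0.14 with high energy in dye 5, and 0.046, 0.23, -0.060 and -0.11 with high energy in dye 3. Its couple means were 0.076, 0.12, 0.024 and 0.013, all above 0. The ratio was 0.061 ± 0.082 (SE, n = 4 couples; turned 0.030), which is 1.04-fold with an interval of 0.905 to 1.2-fold. It was 0.034 without couple 2 and 0.099 with only the dye 5 array of couple 4.

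The 2 pairs of HSP90AA1 spots, which were averaged for these values, differed from each other. Spots 2803 and 2804 had means of 0.067, 0.27, 0.22 and -0.31 in couples 1 to 4. Spots 2895 and 2896 had 0.084, -0.017, -0.17 and 0.33. The pairs had opposite signs in couples 2, 3 and 4, and nearly the same mean over the arrays, 0.061 and 0.058. Each pair spread more widely over the couples than their average did, and neither pair lay above 0 in every couple. The small spread of the gene's couple means is thus that of the average and not of either pair. No source used here says whether the pairs carry the same probe.

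HSP90AB1, the constitutive form, had 0.36, 0.11, 0.29 and 0.068 with high energy in dye 5, and 0.31, -0.36, 0.050 and 0.33 with high energy in dye 3. All arrays but one of couple 2 were above 0. Its ratio was 0.12 ± 0.11 (SE, n = 4 couples; turned 0.059), and was 0.23 without couple 2 and 0.081 without couple 1.

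HSPA1A and HSP90AA1 were the members above 0 in all 4 couples, 2 of the 9 members measured in 4 couples. For HSP90AA1 this holds for the average of its pairs of spots and for neither pair alone. Over all features measured in 4 couples, 7.47% lay above 0 in each couple and 9.12% below. No member lay below 0 in all couples. On all 8 arrays 0 members lay above 0, against 0.797% of features, and 0 below, against 1.46%.

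The small heat shock proteins had the 2 highest ratios. HSPB1, or HSP27, forms large oligomers that hold unfolding proteins and bind actin filaments. Its 10 spots gave gene values of -0.22, 0.15, 0.28 and 0.34 with high energy in dye 5, and 0.018, 0.45, 0.20 and 0.61 with high energy in dye 3. One array of couple 1 lay below 0 and the other 7 above. Its couple means were -0.10, 0.30, 0.24 and 0.48. The ratio was 0.26 ± 0.13 (SE, n = 4 couples; turned -0.10), or 1.2-fold with an interval of 0.95 to 1.51-fold. It was 0.17 without couple 4 and 0.34 without couple 1.

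The 5 pairs of HSPB1 spots did not give the same ratio. Spots 3889 and 3890 had a mean of 0.53 over the arrays, with -0.076, 0.46, 0.78 and 0.95 in couples 1 to 4. Spots 7245 and 7246 had 0.32, of which 1 spot value of 2.16 in couple 2 was a part. The other 3 pairs had 0.11, 0.092 and 0.016. The mean of spots 45 and 46 stayed between -0.19 and 0.11 on every array. In couple 1, 4 of the 5 pairs lay below 0, and in couples 2 and 3 all 5 lay above. In couple 4, 4 of 5 lay above. With the median of the spots in place of their mean, the gene's ratio was 0.18 ± 0.12.

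**Figure D2:**
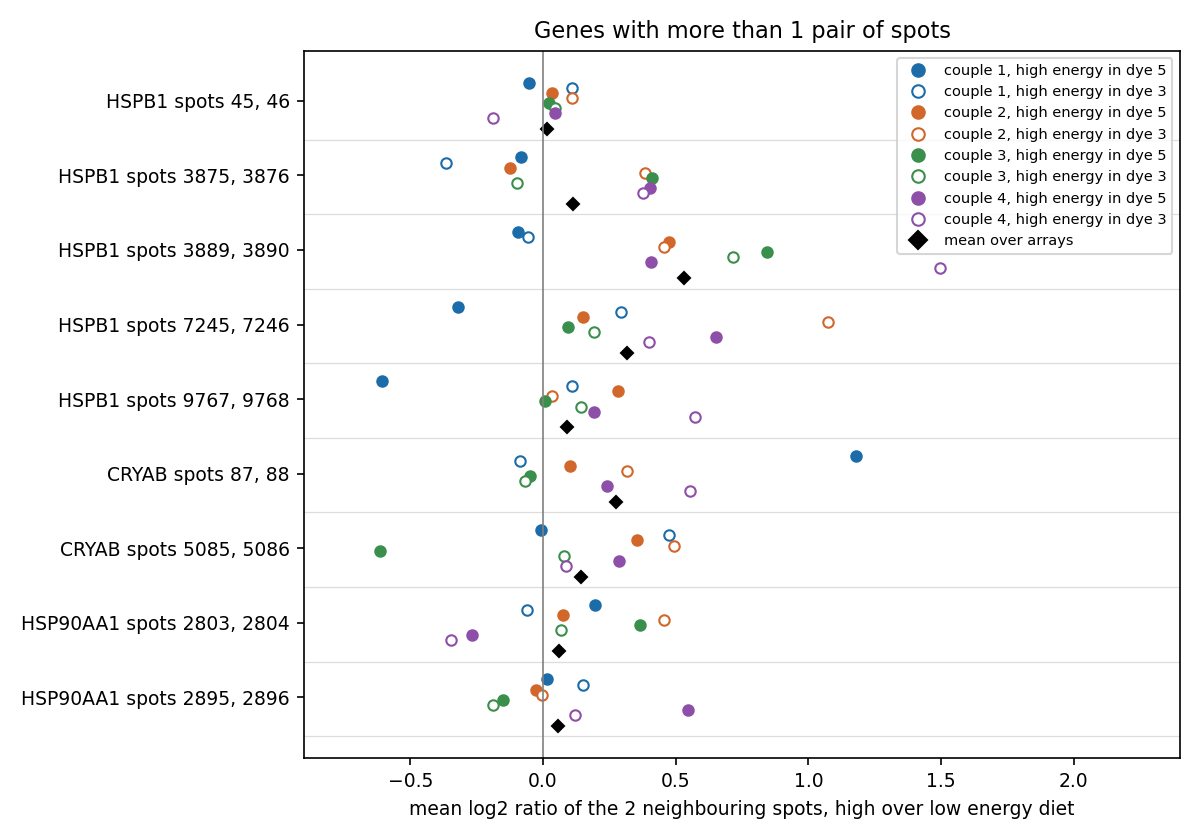
Mean log2 ratio of 2 neighbouring spots (horizontal axis) for the genes with more than 1 pair of spots, by array, coloured by couple, filled for high energy in dye 5 and open for dye 3, with the mean over arrays as a diamond. The HSPB1 pair of spots 45 and 46 lies close to 0 while spots 3889 and 3890 have a mean of 0.53, and the 2 pairs of HSP90AA1 differ in sign in couples 2, 3 and 4.

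CRYAB, αB-crystallin, is a small heat shock protein of muscle that binds desmin and titin. With high energy in dye 5 it had 0.59, 0.23, -0.33 and 0.26 in couples 1 to 4, and with high energy in dye 3 it had 0.19, 0.41, 0.0068 and 0.32. Couple 3 stood apart at a mean of -0.16, while the other couples had 0.39, 0.32 and 0.29. Both arrays of couples 1, 2 and 4 were above 0. The ratio was 0.23 ± 0.16 (SE, n = 4 couples; turned -0.030), and was 0.15 without couple 1 and 0.33 without couple 3. Couples 1 and 3 share the high energy sample and differ here in sign.

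Part of the CRYAB value in couple 1 was a single spot. Spot 87 had 2.00 on the dye 5 array, where spot 88 next to it had 0.36 and the spots of the other pair had -0.19 and 0.17. The pairs of spots 87 and 88 and of spots 5085 and 5086 had means of 0.27 and 0.14 over the arrays. Both pairs were above 0 in couples 1, 2 and 4 and below 0 in couple 3. With the median of the 4 spots, the ratio was 0.19 ± 0.14.

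The mitochondrial chaperonin genes had the largest mean gaps between swapped dyes of the members, 0.78 for HSPD1 and 1.15 for HSPE1. Most of the gap of HSPE1 came from couple 4. HSPD1, or HSP60, forms the barrel and HSPE1, or HSP10, its lid, and the genes lie head to head in mammals and share a promoter region. HSPD1 had 0.46, 1.00, 0.51 and -0.33 with high energy in dye 5, and -0.098, -0.29, -0.23 and 0.21 with high energy in dye 3. The sign was opposite on the swapped arrays in all 4 couples. Its ratio was 0.15 ± 0.11 and its turned value 0.24 ± 0.17 (SE, n = 4 couples; limma's adjusted p = 0.996 and 0.998). The ratio was 0.065 without couple 2, 0.24 without couple 4 and 0.073 with only the dye 5 array of couple 4. The 1.00 of couple 2 and the 0.21 of couple 4 each rested on 1 spot, since its neighbour had no value there. The 2 spots had opposite signs on the dye 3 arrays of couples 1 (-0.34 and 0.14) and 2 (-0.97 and 0.39). They also did on the dye 5 array of couple 3, at 1.16 and -0.15. They shared a sign on the dye 5 arrays of couples 1 and 4 and the dye 3 array of couple 3.

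HSPE1 had 0.12, -0.17, -0.12 and -0.71 with high energy in dye 5, and -0.042, -0.63, -0.55 and 2.82 with high energy in dye 3. The value of 2.82 came from 1 spot of couple 4, whose neighbour had no value on that array. Of the other 7 arrays, 6 lay below 0. The ratio was 0.14 ± 0.29 (SE, n = 4 couples; turned -0.40), the widest error of the members, with an interval of 0.67 to 1.8-fold. Without couple 4 it was -0.26, without couple 2 it was 0.37, without couple 3 it was 0.23, and with only the dye 5 array of couple 4 it was -0.39 ± 0.16. Under that last alternative 7 of the 10 members were above 0, with HSPA9 also turned, and their median was 0.091.

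Each couple offers a repeat of every ratio with the dyes swapped. The arrays of a couple gave the same sign in 19 of 39 couple values, 48.7%, against 50.5% over all features tested. Both arrays were above 0 in 14 of the 39 (35.9%, against 24.5% over all features) and both below 0 in 5 (12.8%, against 25.9%). The median gap between the arrays of a couple was 0.264 for the members and 0.286 for all features. CRYAB, HSPB1 and HSP90AB1 had the same sign on both arrays in 3 of 4 couples each. HSPD1 did so in 0 of 4, and HSPA9 in 0 of the 3 couples where both arrays had a value. How many of all features reach such counts per gene was not counted.

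**Figure D3:**
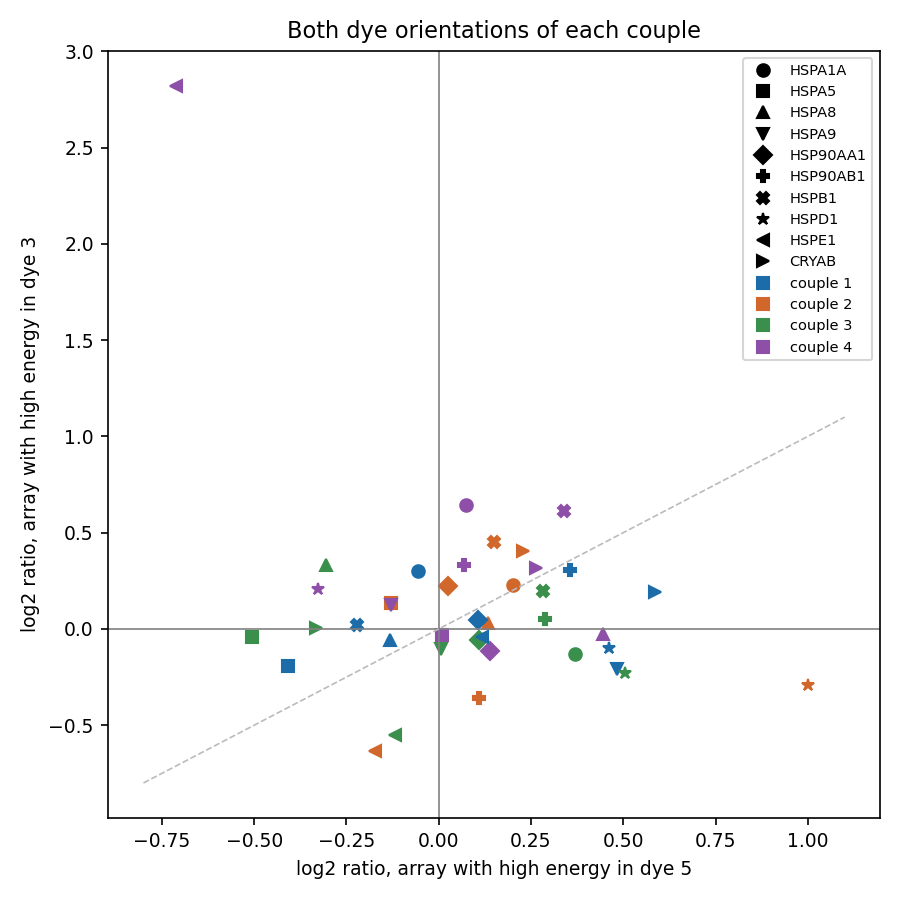
Log2 ratio of each member on the array with high energy in dye 3 (vertical axis) against the array of the same couple with high energy in dye 5 (horizontal axis), with symbols for genes, colours for couples and the line of equal values dashed. The 39 points spread over all 4 quadrants, with 14 in the upper right and 5 in the lower left, and HSPE1 of couple 4 stands apart at the top.

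By couple, the median over the members was 0.099 in couple 1, 0.12 in couple 2, 0.019 in couple 3 and 0.20 in couple 4, against -0.0056, -0.00033, -0.0025 and -0.026 over all features. The members above 0 numbered 7 of 10, 7 of 9, 6 of 10 and 7 of 10. The genes below 0 were HSPA5, HSPA8 and HSPB1 in couple 1, HSP90AB1 and HSPE1 in couple 2, HSPA5, HSPA9, HSPE1 and CRYAB in couple 3, and HSPA5, HSPA9 and HSPD1 in couple 4.

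Across the 8 arrays the members varied both with and against each other. Of the 45 pairs of members, 20 had a Pearson r above 0 and 25 below, with a median of -0.059. Among genes whose products work together or alike, r was 0.22 for HSPD1 and HSPE1, -0.20 for HSPB1 and CRYAB, and -0.52 for HSP90AA1 and HSP90AB1. The highest values were 0.73 for HSPA1A and HSPE1, which rests on the 2.82 array and has a Spearman rho of 0.45, and 0.70 for HSPA5 and HSPA8 (rho 0.74). These are descriptions over arrays that share samples, dyes and centring.

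The genes whose ratios were most like the mean of the 9 members on all 8 arrays were SLC39A8, a zinc transporter (r = 0.978), ZNRD2 (r = 0.975), PDCD5 (r = 0.958), HLA-DRA, a class II antigen-presenting chain (r = 0.949), and LARS1, a leucyl-tRNA synthetase (r = 0.943), among 1919 genes measured on all arrays. The likeness rests in part on the dye 3 array of couple 4, where the members' mean was 0.53, against -0.047 to 0.17 on the other 7. SLC39A8, ZNRD2 and LARS1 had 1.92, 3.31 and 2.16 there. Without that array r was 0.832 for SLC39A8, 0.824 for ZNRD2, 0.852 for PDCD5, 0.496 for HLA-DRA and 0.384 for LARS1. With HSPE1 left out of the members' mean, that mean was 0.24 on the array and 0.016 to 0.21 on the other 7, and r over the 8 arrays was 0.846 for SLC39A8, 0.718 for ZNRD2, 0.833 for PDCD5, 0.689 for HLA-DRA and 0.706 for LARS1. The log2 ratio was 0.28 for SLC39A8 (turned -0.15), 0.41 for ZNRD2 (turned -0.42), 0.0075 for PDCD5 (turned -0.016), 0.13 for HLA-DRA (turned -0.15) and 0.19 for LARS1 (turned -0.28).

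Partners of the heat shock proteins were measured for 33 of the 110 genes in 7 lists of chaperones, co-chaperones and stress regulators, and 0 passed limma's threshold. Of the 33, 21 lay above 0 and 12 below, with a median of 0.033. On the turned reading 8 lay above 0 and 25 below, with a median of -0.058. Over all features 46.4% lay above 0, and 47.4% on the turned reading. The further HSP90 proteins had small ratios, HSP90B1 of the endoplasmic reticulum at 0.059 ± 0.18 (SE, 4 couples; turned -0.074) and TRAP1 of mitochondria at -0.0056 ± 0.084 (turned -0.025). The ratio of HSP90B1 averages couples on both sides of 0, with means of -0.32, -0.17, 0.15 and 0.48 in couples 1 to 4. The further small heat shock proteins of muscle, HSPB6 at 0.052 ± 0.080 (turned 0.031) and HSPB7 at 0.044 ± 0.093 (turned -0.014), had smaller ratios than HSPB1 and CRYAB, and that difference was not tested. HSF1, the factor that switches on heat shock genes, had 0.023 ± 0.11 (turned 0.096).

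Of 8 J domain co-chaperones, which bring clients to HSP70 and start its ATP cycle, 6 were above 0, with a median of 0.067, and 3 of 8 were above 0 on the turned reading, with a median of -0.10. DNAJB6, which has a muscle disease role at the Z-disc in humans, had 0.24 ± 0.12 (turned -0.056), and 0.55 in couple 4 against 0.072 to 0.15 in the others. DNAJB1, the main stress-inducible partner of HSPA1A, had -0.15 ± 0.087 (turned 0.068) and was below 0 in all 4 couples and on 7 of 8 arrays, where HSPA1A was above 0 in all 4 couples. DNAJC5, a J protein of vesicles, had -0.31 ± 0.21 (turned 0.096). Of 10 other co-chaperones, 6 were above 0, with a median of 0.0017, and 0 of 10 on the turned reading, with a median of -0.067. STIP1, which bridges HSP70 and HSP90, had 0.12 ± 0.080 (turned -0.20), BAG1, a nucleotide exchange factor of HSP70, had 0.17 ± 0.15 (turned -0.033), and CDC37, which brings kinases to HSP90, had -0.11 ± 0.11 (turned -0.076).

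Both partner genes with an unadjusted p under 0.05 in limma, 2 of 33 against 3.78% of all features, belong to the endoplasmic reticulum list, and they lay on opposite sides of 0. PPIB, a proline isomerase that assists collagen folding, had -0.37 ± 0.093 in 3 couples (turned -0.054; limma's adjusted p = 0.996), with couple means of -0.37, -0.40 and -0.34 in couples 1, 2 and 4. Its swapped arrays differed more, with -0.084 and -0.66 in couple 1, -0.46 and -0.35 in couple 2, and -0.74 and 0.053 in couple 4. The only array of couple 3 with a value had -0.038. SERPINH1, the collagen chaperone, had 0.25 ± 0.086 (turned 0.040; limma's adjusted p = 0.996) and was above 0 on all 8 arrays. CANX, the lectin calnexin, had 0.12 ± 0.11 (turned -0.060). Over the 6 genes of that list, 4 lay above 0 with a median of 0.075, and 3 on the turned reading with a median of -0.0097. Of the 4 regulators of the unfolded protein response, 3 lay below 0 with a median of -0.031, and all 4 on the turned reading with a median of -0.16. Among them ATF4 had 0.14 ± 0.16 (turned -0.16), PPP1R15A -0.044 ± 0.093 (turned -0.089) and XBP1 -0.049 ± 0.19 (turned -0.16).

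**Figure D4:**
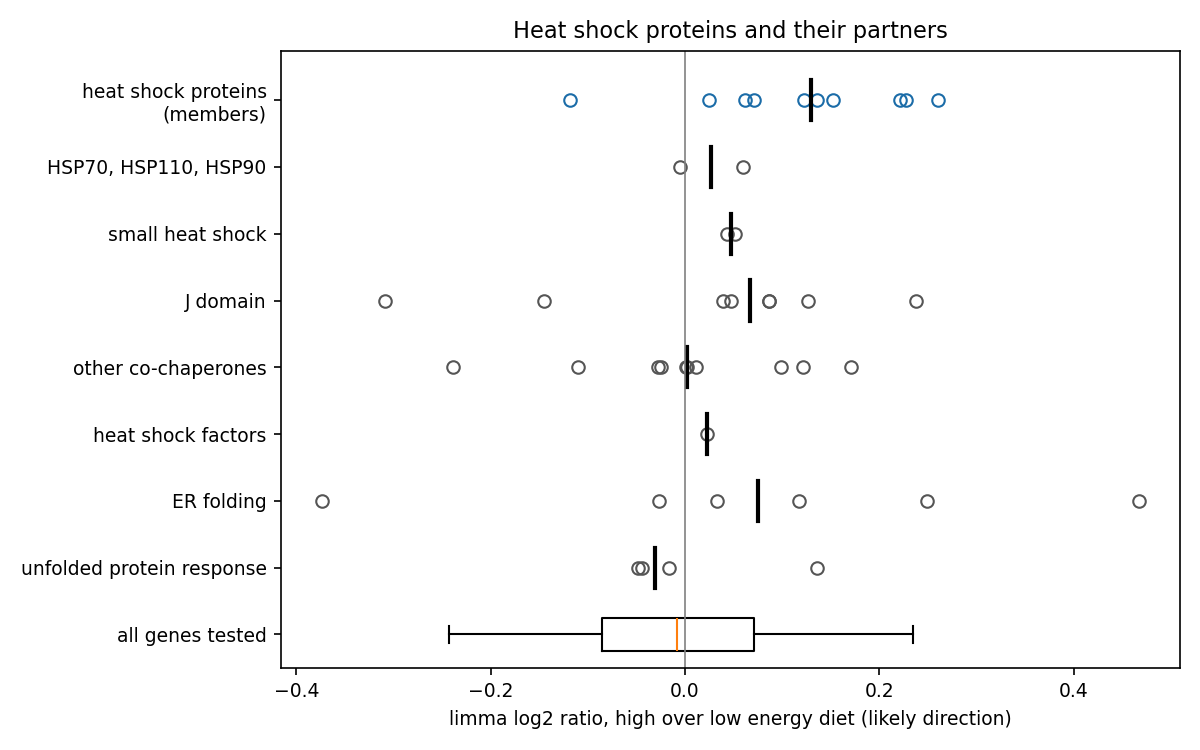
Limma log2 ratio (horizontal axis) of each heat shock protein gene and of each measured gene in the 7 partner lists, one circle per gene, with list medians as black bars and a box plot of all 2556 genes tested (box over the middle 50% of genes, whiskers over the middle 90%). The members have a median of 0.13, and most members and partners lie between the whisker ends of -0.244 and 0.235.

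Markers of other cells in muscle were measured in small numbers. The 3 vessel markers lay above 0 (0.11 to 0.25, median 0.19), as did 3 of 4 matrix markers (median 0.12) and the 1 nerve marker at 0.37, while the 3 immune markers (median -0.049) and 2 adipocyte markers (median -0.072) lay below 0 and the 4 blood markers had a median of -0.0018. On the turned reading the side of 0 changed for most of these lists, with medians of -0.16 for vessel, -0.049 for matrix, -0.15 for nerve, 0.16 for adipocyte and 0.099 for blood, and that of immune markers was -0.035. The nerve marker, S100B, had an SE of 0.17, with 0.017, 0.33 and 0.76 in couples 2, 3 and 4. Among vessel markers, MYL9 had 0.19 ± 0.19 (turned -0.32). It was below 0 in couples 2 and 3 and had 1.74 on the dye 3 array of couple 4. EMCN and TAGLN were above 0 in every couple measured. Of the 11 muscle fibre markers, 5 lay above 0 and 6 below, with a median of -0.038 (turned -0.0035), and 3 of them had an unadjusted p under 0.05 in limma, against 3.78% of all features. MYL1, a myosin light chain of fast fibres, had 0.37 ± 0.10 (SE, n = 4 couples; turned -0.036) and was above 0 on all 8 arrays. MB, the oxygen-binding myoglobin, had -0.32 ± 0.10 (turned 0.22) and was below 0 in all 4 couples. TNNT1, the troponin T of slow fibres, had -0.21 ± 0.080 (turned -0.047) and was below 0 on all 8 arrays. Other markers of fast fibres lay on both sides of 0. The myosin heavy chains MYH1 and MYH2 had -0.17 ± 0.11 (turned 0.060) and -0.0865 ± 0.096 (turned 0.095). The troponins TNNI2 and TNNT3 had 0.15 ± 0.096 (turned -0.051) and 0.088 ± 0.10 (turned -0.0035). MYH7 of slow fibres had -0.14 ± 0.081 (turned -0.13). No marker passed the adjusted threshold, and the part of these markers in the members' ratios was not tested.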

How the data were processed

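The series matrix holds, as deposited by the authors, 1 log2 ratio between channels for each spot and array. The unit was read from the values: 5.64% to 17.5% per array were logarithms in base 2 of fractions with a denominator up to 60, against at most 0.2% in base 10. Per the series' design text, cDNA labelled with Cy3 and Cy5 was hybridised in competition and read with a ScanArray LITE scanner. No source used here gives the authors' background correction, normalization or filter on spots. Most values are log2 ratios of 2 small whole numbers, and the larger, called the recovered signal, served for 1 alternative without dim spots. Dim here means a recovered signal under 128. The fraction was taken in lowest terms, so a bright spot whose 2 numbers share a factor can count as dim. The number of arrays limits the precision.

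Arrays were centred on their medians and spots of one symbol averaged. Swapped arrays of a couple were averaged to 1 replicate, which pairs the arrays by the sample numbers in the titles. A feature needed both orientations in at least 3 couples, which left 5025 of 6296 features. Ratios were tested against 0 with lmFit and eBayes of limma 3.58.1 in R 4.3.3, two-sided, with Benjamini-Hochberg adjustment over all features. High energy sample 40 of couples 1 and 3 was a block at a fixed correlation of 0.5, so these couples weigh less in the estimate. Errors are limma's SE. The script was tested on simulated data. Named genes were all members, up to 3 genes of each list with the smallest p, and the 5 most alike genes. MYH1, MYH2, MYH7, TNNI2 and TNNT3 were named in addition for their fibre type. Spots were singled out after their values were seen. Members and lists were chosen with earlier results of these data known. Probe sequences were not used here.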

Additional observations from a re-analysis of the deposited data

Results flagged for a closer look

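HSPE1 with high energy in dye 3 held a value far from the others of its group: the gap of 2.82 in couple 4 to the next highest array, divided by the range of the 4 arrays, was 0.8292, just over the critical value of 0.829. The value rests on 1 spot, and the array of the same couple with high energy in dye 5 had -0.71. Of the 28 groups of 4 values examined this way, 1 was marked, and chance marks about 5%.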

How the results depend on the processing

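The count of features called was 0 for the diet ratio in the 20 alternatives run and 0 for the turned value in the 15 run, with a range without 1 couple of 0 to 0. In limma at an unadjusted p under 0.05 the diet count was 190 as reported, 310 with independent couples, 301 with couples 1 and 3 averaged, 353 in a fit of 8 arrays with the couple as a replicate block (correlation -0.0362), 108 with high energy in dye 5 only, 108 without couple 2 and 305 without couple 3. The turned count was 133 as reported, 260 with independent couples, 236 with couples 1 and 3 averaged, 208 with each spot on its own, and 79 to 230 without 1 couple. The replicate block changed no call.

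The members' median of 0.13 was -0.0076 with the sign of the dye 3 arrays turned, 0.12 with high energy in dye 5 only and 0.059 with high energy in dye 3 only, and lay between 0.086 and 0.15 without 1 couple. The count of members above 0 was 9 of 10 as reported, and 8 of 10 with either orientation alone, after quantile normalization, without couple 1 and without couple 4. Signs reversed as follows, and the cause was not tested. Turned, HSPA1A had -0.076, HSPB1 -0.10, HSPE1 -0.40 and CRYAB -0.030. HSPE1 had -0.043 after quantile normalization, -0.27 with high energy in dye 5 only, -0.26 to 0.37 without 1 couple and -0.39 without the dye 3 array of couple 4. HSPD1 had -0.091 with high energy in dye 3 only. HSPA9 had -0.025 to 0.068 without 1 couple and -0.030 without the dye 3 array of couple 4. HSPA5, HSPA8, HSP90AA1 and HSP90AB1 kept their sign in all alternatives run. With spots of a low recovered signal left out, HSPA9 and HSPE1 could not be fitted, and HSPA5 had -0.26. That filter may also drop bright spots, since it rests on fractions in lowest terms. Single spots give no value per gene, so that alternative has none for the members one by one.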
